A study of Mus musculus with 4 samples.

Results

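The fibroblast growth factor (FGF) genes considered here are the ligand genes Fgf1, Fgf2, Fgf7, Fgf10 and Fgf21, the receptor genes Fgfr1, Fgfr2 and Fgfr3, and Klb, which encodes the co-receptor beta-Klotho. They are 9 of 22225 protein-coding genes in the mouse mm9 annotation. Their accessible sites were all ATAC-seq peaks whose summit lay within 50 kb of any annotated transcription start site (TSS) of the gene, and peaks of the 4 lists that shared at least 1 bp were joined into 1 site. This gave 135 sites of 100608 in the series, of which 82 had the TSS of the member as the nearest TSS of a protein-coding gene and 53 lay nearer to another gene. ATAC-seq marks open chromatin as places where the Tn5 transposase can insert adapters. The cells were im-scWAT, an immortalized stromal culture from subcutaneous white fat of 5-week-old mice with the genotype Jmjd1a +/+ (WT) or Jmjd1a HY/HY (HY). JMJD1A removes methyl groups from lysine 9 of histone H3, and HY cells carry a histidine-to-tyrosine change on both alleles that disables the enzyme. Each genotype was assayed before differentiation (D0) and on day 8 (D8). D8 cells of both genotypes had been induced with indomethacin, dexamethasone, 3-isobutyl-1-methylxanthine, rosiglitazone, insulin and T3 and then kept in insulin, T3 and rosiglitazone. There was 1 library for each combination of genotype and day.

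FGFs are secreted signals. Paracrine members such as FGF1, FGF2, FGF7 and FGF10 bind heparan sulfate and receptor tyrosine kinases of the FGFR family on nearby cells, whereas FGF21 circulates as a hormone and signals, chiefly through FGFR1, where beta-Klotho is also present. In fat, FGF1, FGF2 and FGF10 are known for effects on preadipocyte growth and differentiation, and FGF21 for effects on glucose uptake and thermogenic gene expression in mature adipocytes.

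With 1 library per group no difference between conditions could be tested, so every difference below is one between libraries and carries no p-value. A peak is described by its summit pileup, the number of overlapping tags at its highest point. Ratios of pileups were divided by the ratio of the genome background rates of the libraries and are called scaled ratios. Their 95% exact binomial intervals include only counting error. Between the lists the number of peaks went from 41228 to 77994. Setting the depth of WT D0 to 1, that of WT D8 was 0.806, that of HY D0 1.07 and that of HY D8 0.750. Values for the 4 libraries are given in the order WT D0, WT D8, HY D0, HY D8 where no other order is stated. The lowest pileup of any called peak was 4 or 5, so a missing peak is not a pileup of 0, and no ratio is given against it. Adipocyte markers had a promoter peak at 6 of 10 genes in either D0 library and at 10 of 10 in either D8 library, and preadipocyte markers at 7 or 8 of 10 and at 3 of 10. Beige markers had one at 4 and 5 of 10 genes in the WT and HY libraries of D0 and at 7 of 10 in either D8 library. Of these, Ppargc1a and Cpt1b were called only at D8 in both genotypes, Cidea at 9 in WT D8 and at 7 and 13 in the HY libraries with no peak in WT D0, Elovl3, Cox7a1, Prdm16 and Ppara in all libraries, and Ucp1, Cox8b and Dio2 in none, although Ucp1 had 3 sites within 50 kb that were called in both D8 lists and in neither D0 list. Endothelial markers had promoter peaks at 3 and 2 of 5 genes in the WT and HY libraries of D0 and at 0 and 1 of 5 in those of D8. Muscle markers had one at 1 of 5 genes in WT D8 and at 0 of 5 in the other libraries. Leukocyte and epithelial markers had one at 0 of 5.

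The members differed in the number of sites called only at D8 and only at D0. At D8 both genotypes had called peaks at 9 sites that had none at D0 (D8-only sites), and 5 of these 9 were at Klb. Fgf1, Fgf2, Fgf21 and Fgfr1 had 1 D8-only site each, and Fgf7, Fgf10, Fgfr2 and Fgfr3 had none. The reverse pattern, peaks in both D0 lists and in neither D8 list (D0-only sites), was found at 25 sites, with 7 near Fgfr2, 6 near Fgf2, 4 near Fgfr1, 3 near Fgfr3, 2 each near Fgf1 and Fgf7, and 1 near Klb. Another 34 sites had a peak in all 4 lists (all-library sites), and 48 had a peak in 1 list, with a median pileup of 8.00 and a highest pileup of 18.

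The shares of these classes among the member sites were set beside those near all genes. D8-only sites made up 6.67% of the member sites, against 6.10% of the 75574 sites within 50 kb of any protein-coding gene, and D0-only sites 18.5%, against 22.7%. All-library sites made up 25.2%, against 28.0%, and sites with a peak in 1 list 35.6%, against 30.9%. At least 1 D8-only site was found near 5 of the 9 members and near 27.9% of all protein-coding genes, and at least 1 D0-only site near 7 of 9 and near 65.8%. A gene had a median of 7 sites, 0 D8-only sites and 1 D0-only site. Klb had 5 D8-only sites, and 0.931% of all protein-coding genes had at least 5, as did 5 of the 10 adipocyte markers, 1 of the 10 beige markers and 0 of the 42 other pathway genes described at the end. The D0 lists were longer than the D8 lists, and after cutting every list to the 41228 peaks with the highest -log10 q the members had 14 D8-only sites (17.3%, against 12.6% of the sites near all genes in the same cut lists) and 11 D0-only sites (13.6%, against 12.1%). After dropping peaks with a -log10 q under 5 instead, Klb had 4 D8-only sites, Fgf2 had 2, Fgfr1 had 1 and the other members had none. In those stricter lists D0-only sites numbered 6 near Fgf2, 5 each near Fgfr1 and Fgfr2, 4 near Fgf7, 2 near Fgf1, 1 near Klb and 0 near Fgfr3. In the lists of equal length they numbered 4 near Fgfr2, 2 each near Fgf2 and Fgf7, 1 each near Fgf1, Fgfr1 and Klb, and 0 near Fgfr3.

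**Figure D1:**
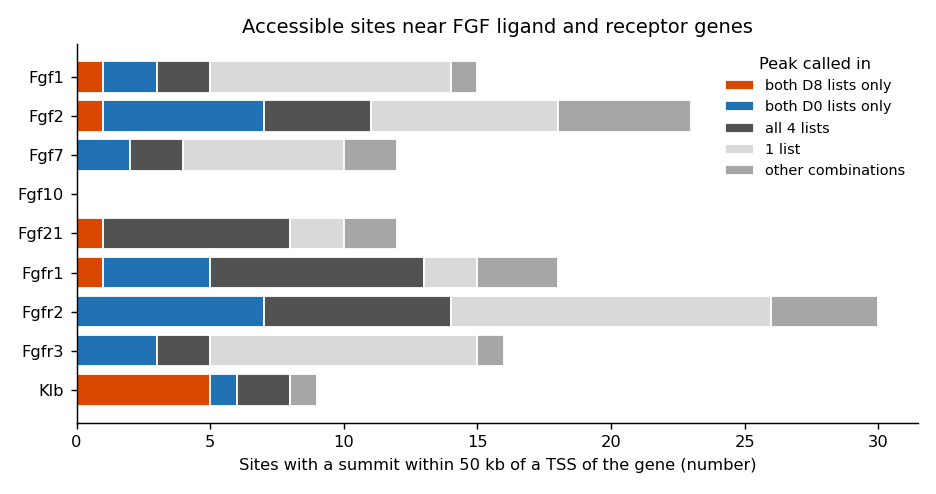
Number of accessible sites (x axis) with a summit within 50 kb of a TSS of each gene (y axis), coloured by the lists in which a peak was called. Klb has 5 sites called in both D8 lists and in neither D0 list, the other genes have 0 or 1, and Fgf10 has no site.

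Among the ligands, Fgf2 encodes a heparin-binding growth factor of mesenchymal cells and had 23 sites on chromosome 3, the most of any ligand. Its start sites differed from each other. The far upstream non-coding start was open in every library, with pileups of 44, 29, 40 and 27 in the 4 libraries (chr3:37210962-37211850). The first coding start, 35.8 kb downstream of it, had low peaks, of 13 and 9 in the WT and HY libraries of D0 and of 8 in HY D8, and none in WT D8 (chr3:37247229-37247600). A start inside the gene, annotated for a protein-coding transcript, was called only at D8, where WT had a pileup of 28 and HY one of 32 (chr3:37279439-37279874). The D8 heights of this internal site did not differ beyond counting error between genotypes (HY to WT scaled ratio 1.23, interval 0.716 to 2.12). The bases before this internal start are shown because it is the only coding start of Fgf2 that was called at D8 in both genotypes and in neither D0 list. None of the motifs searched, which are listed with Klb below, lay wholly in the stretch, so it has no capitals.
Fgf2 internal start, upstream, mm9 plus strand, chr3:37279551-37279676: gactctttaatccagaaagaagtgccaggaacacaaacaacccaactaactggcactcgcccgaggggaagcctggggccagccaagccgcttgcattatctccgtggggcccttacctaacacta

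Of the 23 sites near Fgf2, 17 had a peak in WT D0 and 16 in HY D0, against 7 and 12 on D8. This balance depended on the length of the lists, since after cutting the lists to equal length Fgf2 had 3 D8-only and 2 D0-only sites, in place of 1 and 6. The tallest D0-only site, 18.6 kb past the internal start and within an intron, reached 30 in WT D0 and 32 in HY D0 (chr3:37297871-37298480). An intronic all-library site 12.5 kb past the first coding start had pileups of 58, 20, 49 and 29 (chr3:37259451-37260199). Its D8 to D0 scaled ratio was 0.428 in WT (interval 0.244 to 0.722) and 0.848 in HY (0.516 to 1.37), so it was lower beyond counting error in the WT libraries and not in the HY libraries. The difference between those 2 ratios was not tested. By the deposited fold over local background the D8 to D0 ratios of this site lay closer together, at 0.646 in WT and 0.899 in HY. A neighbouring intronic site 6.64 kb past the first coding start went the other way, with no peak and then 17 in WT and with 6 and then 24 in HY (chr3:37253599-37253988). HY D8 alone had low peaks at 2 non-coding starts inside the gene, with pileups of 10 and 9. The tallest site in the window was the promoter of the neighbouring gene Spata5, at 65, 53, 61 and 45, with a D8 to D0 scaled ratio of 1.01 in WT (interval 0.691 to 1.48) and 1.06 in HY (0.702 to 1.58).

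**Figure D2:**
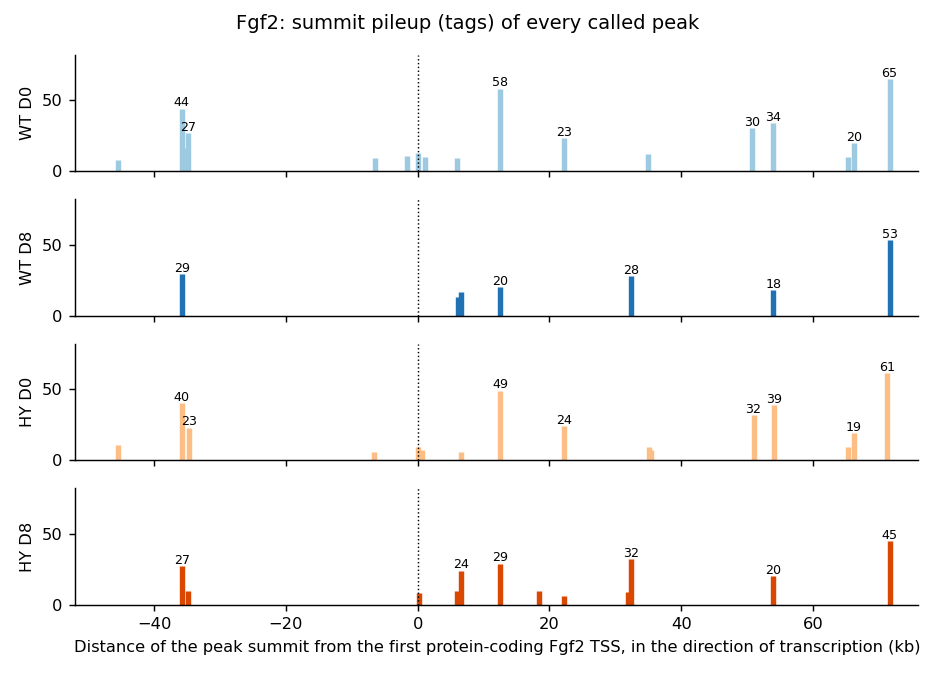
Summit pileup in tags (y axis) of every called peak near Fgf2 against the distance of its summit from the first coding TSS in kb (x axis), 1 panel per library, with pileups of 18 or more written above the bars. The peak at the internal start, at 28 for WT D8 and 32 for HY D8, has no counterpart in either D0 panel, and several peaks of the D0 panels downstream of it are missing at D8.

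Fgf7 encodes keratinocyte growth factor, a product of stromal cells that acts on epithelium. Its 12 sites on chromosome 2 all lay nearest to Fgf7 itself and none was D8-only. The promoter peak was tall at D0 and low at D8, at 32 and 11 in WT and at 40 and 11 in HY (chr2:125859932-125860586). The D8 to D0 scaled ratio was 0.427 in WT (interval 0.194 to 0.869) and 0.394 in HY (0.182 to 0.782), so the D8 pileup was lower beyond counting error in either pair. The local background that the peak caller set at this site was lower at D8 as well, at 4.68 and 0.945 tags in WT and 5.35 and 1.05 in HY. The deposited fold over that background was 5.81 and 6.17 in WT and 6.46 and 5.85 in HY, so the lower value at D8 holds for the pileup and not for the fold. Upstream of the promoter, a site 3.36 kb away was D0-only, at 25 in WT and 30 in HY (chr2:125856965-125857122). The tallest intronic site, 30.5 kb past the start, had pileups of 39 in WT D0 and 34 in HY D0, no peak in WT D8 and 6 in HY D8 (chr2:125890692-125891679). Its D8 to D0 scaled ratio in HY was 0.253 (interval 0.0867 to 0.609). The local background of this intronic site in HY was 2.94 tags at D0 and 0.576 at D8, and the deposited fold was 8.88 and 4.44. The promoter sequence is printed up to the base before the start, because its pileup was lower at D8 in both genotypes, and it held no motif of the search.
Fgf7 promoter, mm9 plus strand, chr2:125860195-125860393: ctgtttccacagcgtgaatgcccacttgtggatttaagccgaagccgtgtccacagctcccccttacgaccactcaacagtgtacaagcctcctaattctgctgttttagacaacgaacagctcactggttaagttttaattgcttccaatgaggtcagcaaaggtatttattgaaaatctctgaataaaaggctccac

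Fgf1 encodes an FGF that binds all FGF receptors. Its 15 sites were mostly weak, and 9 of them were called in 1 list. The start site of one of its coding transcripts had low peaks at D8 alone, of 7 in WT and 7 in HY, with the summit 81 bp past the start. By the promoter window used here (summit from 1000 bp upstream to 100 bp downstream of a TSS), and with all starts of a gene pooled, Fgf1 was the 1 member whose promoter was called at D8 only in both genotypes, a state that 0.949% of protein-coding genes had. This call was lost with the stricter threshold, since Fgf1 had 0 D8-only sites once peaks with a -log10 q under 5 were dropped. The internal start of Fgf2 was D8-only too, but other Fgf2 starts were called at D0. The tallest all-library site, 1.17 kb before the most distal start and so just outside the promoter window, had pileups of 32, 33, 33 and 22. In the wider promoter window, which reached 2000 bp upstream, this site counts as a promoter peak in every library. The D8-only call of the Fgf1 promoter is therefore lost with that window too. A D0-only site 43.7 kb past a start, inside an intron of the neighbouring gene Arhgap26, reached 34 in WT D0 and 18 in HY D0. A weak site 11.2 kb upstream was called in both HY libraries, at 8 on D0 and 7 on D8, and in neither WT library. It was the 1 member site of this kind (0.741% of member sites, against 1.23% of the sites near all genes).

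Fgf21 encodes the hormone-like ligand that depends on beta-Klotho. Of its 12 sites on chromosome 7, 10 lay nearer to another gene, and the 2 nearest to Fgf21 were weak. A peak of 7 was called 54 bp past the start in WT D8 and in no other list (chr7:52870744-52870947). The other site, about 1 kb upstream, was called at 7 in WT D0 and at 14 and 10 in the HY libraries, with no peak in WT D8 (chr7:52871710-52871978). The 1 D8-only site of the window had a pileup of 10 in the WT library and 14 in the HY library of D8 and lay 29.3 kb away in the gene Bcat2, which encodes the mitochondrial branched-chain aminotransferase (chr7:52841444-52841610). That call was lost when peaks with a -log10 q under 5 were dropped. The tallest site of the window, 26.1 kb from Fgf21 at the 3′ end of Bcat2, had pileups of 63, 47, 61 and 41 (chr7:52844491-52844957). Its D8 to D0 scaled ratio was 0.926 in WT (interval 0.621 to 1.37) and 0.962 in HY (0.632 to 1.45), both intervals including 1. Before the Bcat2 start, a site 47.3 kb from Fgf21 was taller at D8 in both genotypes, with pileups of 37 and 57 in WT and 42 and 47 in HY (chr7:52823198-52823964). The D8 to D0 scaled ratios of that site were 1.91 (interval 1.24 to 2.98) and 1.60 (1.03 to 2.49). On the other side, a site beside the start of Mamstr, which encodes a coactivator of the muscle factor MEF2, was lower at D8, with pileups of 41 and 14 in WT and 42 and 11 in HY (chr7:52898712-52899351). Its scaled ratios were 0.424 in WT (interval 0.213 to 0.794) and 0.375 in HY (0.174 to 0.741).

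Fgf10 encodes a mesenchymal ligand that is used in development of fat and lung. It was the 1 member with no site within 50 kb, as were 13.3% of protein-coding genes. Just outside that distance, 51.5 kb upstream, a low peak of 8 was called in WT D8 (chr13:119407056-119407181) and one of 8 in HY D8 (chr13:119406979-119407169). The nearest peaks in either D0 list were 282 kb away.

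The receptor gene Fgfr1 encodes the main FGF receptor of fat and the partner of beta-Klotho. It had 18 sites on chromosome 8, of which 8 were open in all libraries. Its promoter was strong in every library, at 47 and 32 in WT and 63 and 41 in HY (chr8:26629073-26630228). After scaling, the D8 to D0 ratio of the promoter was 0.845 in WT (interval 0.522 to 1.35) and 0.932 in HY (0.613 to 1.40), so no difference between days was detectable at this depth. A distal site 48.0 kb upstream of the first start behaved otherwise, with pileups of 60, 16, 77 and 21 (chr8:26575848-26576814). Its scaled ratio was 0.331 in WT (interval 0.178 to 0.582) and 0.391 in HY (0.229 to 0.640), the lowest value among the 34 all-library sites in WT. Close to it, 42.4 kb upstream of the start, a D0-only site was called at 10 in WT D0, with a -log10 q of 4.48, and at 25 in HY D0 (chr8:26581479-26581842). The distal site is printed because it was the tallest member site in HY D0 and was lower at D8 in both genotypes. The capitals mark 2 matches to the AP-1 motif TGANTCA.
Fgfr1 distal site, mm9 plus strand, chr8:26576071-26576271: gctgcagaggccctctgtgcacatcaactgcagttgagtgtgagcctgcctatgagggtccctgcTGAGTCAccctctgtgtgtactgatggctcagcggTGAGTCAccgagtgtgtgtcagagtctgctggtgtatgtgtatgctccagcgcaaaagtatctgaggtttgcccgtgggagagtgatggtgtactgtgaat

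Inside and past Fgfr1 the sites were mixed. The 1 D8-only site was called at 14 in the WT library and at 24 in the HY library and lay in a coding exon of the neighbouring gene Letm2 (chr8:26696924-26697240). The HY to WT scaled ratio there was 1.84 (interval 0.915 to 3.85). A second site in Letm2, called in every library, was low at D0 and higher at D8 in both genotypes, with pileups of 7 and 11 in WT and 11 and 15 in HY, but the intervals of its scaled ratios of 1.95 and 1.95 included 1. At 3 sites a peak was called in both WT libraries and in HY D0 but not in HY D8. These were an upstream site with pileups of 18 and 9 in WT and 25 in HY D0, an intronic site with 12, 7 and 13, and a site at the 3′ end with 13, 5 and 15. The WT D8 pileups of these 3 sites, 5 to 9, were close to the lowest that could be called. The promoters of the neighbours Letm2 and Whsc1l1 were tall in all 4 libraries, at 52 to 70 and at 51 to 69.

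Fgfr2, whose epithelial and mesenchymal splice forms differ in the ligands they bind, had 30 sites on chromosome 7. Of these, 12 belonged to the window of a single annotated transcript whose start lies 2.90 Mb upstream, beside the promoter of Ctbp2, and the other 18 surrounded the gene itself. The peak at that far start had pileups of 42, 27, 49 and 30, with D8 to D0 scaled ratios of 0.798 and 0.877 whose intervals included 1. The promoter was open in all libraries at 22 and 25 in WT and 25 and 19 in HY (chr7:137409701-137410113). Its D8 to D0 scaled ratio was 1.41 in WT (interval 0.763 to 2.62) and 1.09 in HY (0.567 to 2.06). A second site 196 bp past a start was called at 10 in WT D0 and at 17 and 9 in the HY libraries, with no peak in WT D8 (chr7:137409288-137409587). Beyond the 3′ end a site had pileups of 32 in WT D0 and 35 in HY D0, no peak in WT D8 and 8 in HY D8, for a scaled ratio in HY of 0.327 (interval 0.131 to 0.718; chr7:137286771-137287403). The local background there in HY was 2.46 tags at D0 and 0.603 at D8, and the deposited fold was 10.4 and 5.61. An intronic site 6.63 kb upstream of the promoter starts had pileups of 22 and 8 in WT and 26 and 10 in HY, with scaled ratios of 0.451 and 0.551 whose intervals included 1 (chr7:137416793-137417254). The tallest intronic site, 12.8 kb past an internal start, had pileups of 25, 26, 35 and 27 (chr7:137358890-137359634), and the intervals of its scaled ratios of 1.29 and 1.10 included 1. No D8-only site was called near Fgfr2.

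Fgfr3, known for its part in restraining bone growth, had 16 sites on chromosome 5, of which 10 were called in 1 list. Its promoter had nearly the same pileup in every library, at 26 in WT D0 and 29 in each of the others (chr5:34064241-34065078). Since the D8 libraries were shallower, the scaled D8 to D0 ratio was 1.38 in WT (interval 0.787 to 2.45) and 1.43 in HY (0.826 to 2.48), with both intervals including 1. Apart from the promoters of Fgfr3 and of its neighbour Letm1, no site of the window was called in both D8 libraries. The Letm1 promoter had pileups of 47, 45, 61 and 42. The 3 D0-only sites were weak, with pileups of 8 to 16, and none of the 3 calls was kept with lists of equal length or without peaks of a -log10 q under 5. A peak of 10 was called 624 bp upstream of the start in WT D8 alone, and one of 13 at a non-coding start inside the gene in HY D0 alone.

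Klb encodes beta-Klotho, the co-receptor that makes FGFR1 responsive to FGF21. The gene lies on the plus strand of chromosome 5 and has 1 annotated start, at position 65739625. Of its 9 sites, 3 were called in WT D0 and 4 in HY D0, and 8 in each D8 library. All 5 sites inside the gene were D8-only, whereas none of the other 4 sites was. The strongest were 3 sites in the introns closest to the start. The site 2.61 kb past the start had a pileup of 26 in WT and 27 in HY at D8 (chr5:65741862-65742339). The site 6.03 kb past the start had 43 and 38 (chr5:65745428-65745885), and the site 8.77 kb past the start had 35 and 35 (chr5:65748099-65748533). Each of these 3 heights was above the median pileup of 13.0 to 14.0 over all peaks of the D8 libraries.

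The other 2 D8-only sites of Klb were lower. An intronic site 26.5 kb past the start had a pileup of 16 in WT and 10 in HY (chr5:65766033-65766396). This site lay nearer to the start of the neighbouring gene Rpl9, 14010 bp away, than to that of Klb. At the start of Klb a weak peak of 10 was called in both D8 libraries (chr5:65739603-65739789). Its summit was at 65739640 in HY D8, within the promoter window, and at 65739727 in WT D8, just beyond it, so that Klb counts as having a promoter peak in HY D8 only although both peaks overlap the first exon. HY to WT scaled ratios at D8 were 1.07, 1.12, 0.949, 1.07 and 0.671 from the first to the last of the 5 sites, and every interval included 1. At the tallest site the interval was 0.597 to 1.5.

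The 4 sites outside the gene served as a local comparison. The promoters of the neighbouring housekeeping genes Rfc1, which encodes a replication factor, and Rpl9, which encodes a ribosomal protein, were open in all libraries. Their pileups were 44, 29, 57 and 26 for Rfc1 and 42, 35, 53 and 30 for Rpl9. A site in an intron of Rfc1 had 9 in WT D8 and 9 and 11 in the HY libraries, and a site in Lias, which encodes lipoic acid synthetase, was D0-only at 22 and 20. With lists of equal length Klb also had 5 D8-only sites. These were the 4 intronic sites and the one in Rfc1, and the weak site at the start dropped out. It also dropped out without peaks of a -log10 q under 5, which left the 4 intronic sites. D8-only sites were more common near all genes in the lists of equal length, at 12.6% of sites against 6.10% in the full lists. The 0.931% of genes with at least 5 D8-only sites refers to the full lists, and no such share is given for the other settings.

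**Figure D3:**
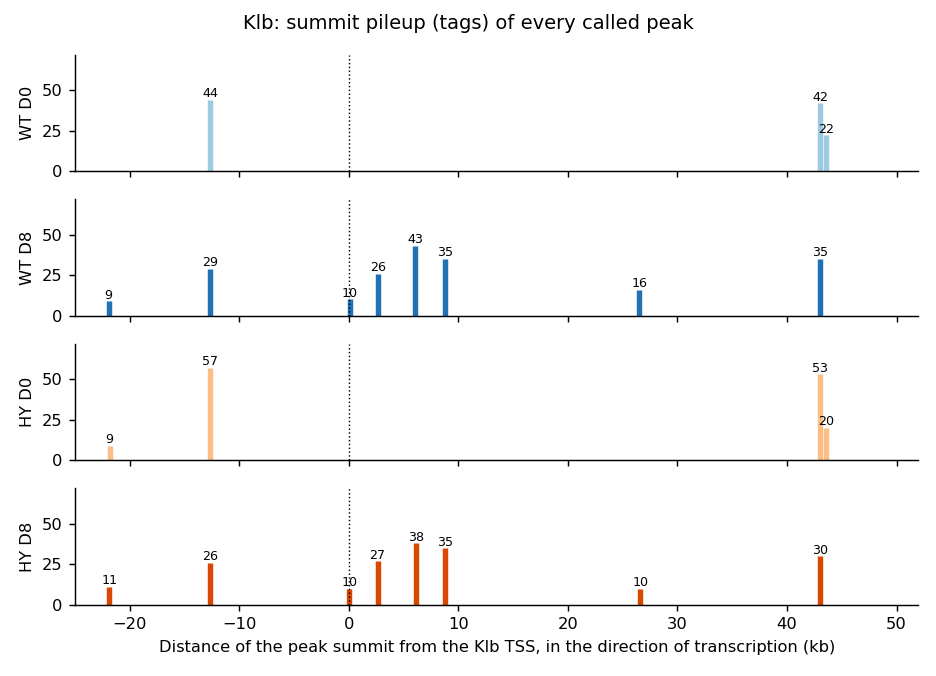
Summit pileup in tags (y axis, written above each bar) of every called peak near Klb against the distance of its summit from the Klb TSS in kb (x axis), 1 panel per library. Between the TSS and 30 kb past it neither D0 panel has a peak, whereas both D8 panels have 5, with pileups of 10 to 43.

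The sequences around the Klb summits are shown because Klb had the most D8-only sites of the members. The search covered 100 bp on either side of the summit on both strands, and capitals mark every match. The motifs searched were the C/EBP motif TTGCNNAA, the AP-1 motif TGANTCA, the glucocorticoid receptor motif ACANNNTGT, the TEAD motif GGAATG, the CRE motif TGACGTCA, the C/EBP-ATF motif TGATGNAAT, the PPARG:RXR repeat of 2 copies of AGGTCA or AGGNCA with 1 base between, the EBF pair TCCC and GGGA with 2 bases between, and the NFI pair TTGGC and GCCAA with 5 bases between. At the start of the gene only the coding part of the window is printed, beginning with the start codon, and the capitals mark a glucocorticoid receptor and a TEAD match. The capitals at 6.03 kb and 26.5 kb mark C/EBP matches.
Klb start, first coding bases, mm9 plus strand, chr5:65739651-65739740: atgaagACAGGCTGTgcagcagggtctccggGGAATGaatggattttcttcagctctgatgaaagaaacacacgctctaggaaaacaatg
Klb intron, 2.61 kb, mm9 plus strand, chr5:65742137-65742337: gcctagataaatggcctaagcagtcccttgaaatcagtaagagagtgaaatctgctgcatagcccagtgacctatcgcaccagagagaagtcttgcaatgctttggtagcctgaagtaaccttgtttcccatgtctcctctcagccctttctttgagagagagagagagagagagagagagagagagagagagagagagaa
Klb intron, 6.03 kb, mm9 plus strand, chr5:65745557-65745757: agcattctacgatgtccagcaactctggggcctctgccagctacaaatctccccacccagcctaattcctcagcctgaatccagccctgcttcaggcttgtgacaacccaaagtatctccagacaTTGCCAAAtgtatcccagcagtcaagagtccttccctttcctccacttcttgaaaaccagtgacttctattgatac
Klb intron, 8.77 kb, mm9 plus strand, chr5:65748296-65748496: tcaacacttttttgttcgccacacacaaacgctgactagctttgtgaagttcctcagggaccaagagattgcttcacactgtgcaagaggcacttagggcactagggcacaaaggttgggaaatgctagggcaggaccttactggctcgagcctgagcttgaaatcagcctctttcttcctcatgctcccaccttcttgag
Klb intron, 26.5 kb, mm9 plus strand, chr5:65766043-65766243: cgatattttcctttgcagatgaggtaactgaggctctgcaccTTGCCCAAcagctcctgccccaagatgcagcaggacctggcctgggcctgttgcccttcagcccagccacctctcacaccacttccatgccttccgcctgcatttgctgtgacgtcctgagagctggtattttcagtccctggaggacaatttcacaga

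Matches to these motifs were as follows. The C/EBP motif was found at 2 of the 9 D8-only member sites, both in Klb, and at 6 of the 25 D0-only member sites, against 26.9% of all 6031 D8-only sites in the series, 8.82% of all D0-only sites and 11.4% of all sites. The AP-1 motif was found at 0 of the 9 D8-only member sites and at 7 of the 25 D0-only member sites, against 7.06% of all D8-only sites, 31.9% of all D0-only sites and 22.0% of all sites. The TEAD motif was at 2 of 9 and 4 of 25, with 12.1% and 21.9% of all D8-only and D0-only sites, and 17.2% of all sites. The glucocorticoid receptor motif was at 1 of 9 and 3 of 25 and in 6.29% of all sites. The PPARG:RXR repeat was at none of the 9 D8-only, 25 D0-only and 34 all-library member sites, and it was rare in this spelling, at 0.0278% of all sites for AGGTCA and 0.376% for AGGNCA. The CRE motif was found at 1 of the 34 all-library member sites, the Letm2 promoter, and in 0.686% of all sites. The C/EBP-ATF, EBF and NFI spellings occurred in 1.44%, 1.37% and 0.0398% of all sites and at none of the member sites in these 3 classes. A match describes the letters of the window only.

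Promoters were then compared across the members. Using the promoter window, 6, 7, 5 and 7 of the 9 members had a promoter peak in the 4 libraries, while 53.6%, 49.7%, 54.5% and 50.6% of all protein-coding genes had one. Fgf2, Fgf7, Fgfr1, Fgfr2 and Fgfr3 had a promoter peak in every library. Fgf1 had one at D8 in both genotypes, Klb in HY D8, Fgf21 in the WT libraries, and Fgf10 in none. For Fgf21 the WT D0 call rests on the edge of the window, since at the upstream site the WT D0 summit, at 52871722 with a pileup of 7, lay inside it and the taller HY peaks of 14 and 10, with summits at 52871872 and 52871882, lay just outside.

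**Figure D4:**
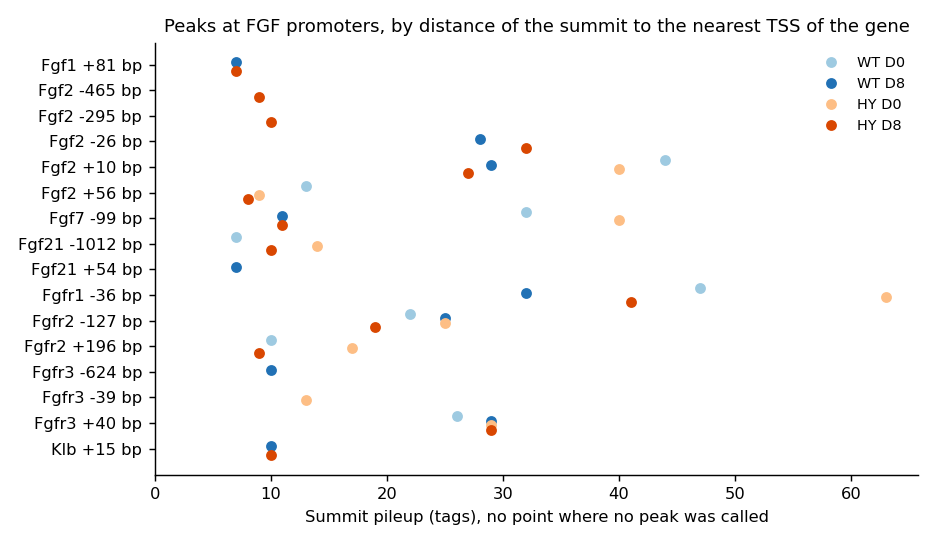
Summit pileup in tags (x axis) of the peaks in each library at 16 promoter sites (y axis: gene and distance of the summit from the nearest TSS of the gene), leaving out the Fgfr2 start beside Ctbp2. Fgf7 has both D8 points at 11 and D0 points at 32 and 40, Fgfr3 has all 4 points at the main start between 26 and 29, and the internal Fgf2 start has D8 points only.

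The heights of the 34 all-library sites were compared between days. Over these sites the summed D8 to D0 scaled ratio was 0.882 in WT (interval 0.806 to 0.964) and 0.926 in HY (0.848 to 1.01). The median of the ratios of single sites was 0.881 in WT and 0.959 in HY over the 34 sites. Over all 24369 all-library sites of the series that median was 0.896 in WT and 0.943 in HY. Relative to that median, 4 of 34 sites (11.8%) were lower at D8 by at least 1.5 times in both genotypes, against 13.1% of the all-library sites near protein-coding genes. These were the Fgf7 promoter, the Fgfr1 distal site, the Mamstr site of the Fgf21 window and the intronic Fgfr2 site upstream of its promoter. Likewise 4 of 34 were higher by at least 1.5 times in both, against 7.75%. These were the Fgfr3 promoter, the site before Bcat2, the weak site in Letm2, and a weak site of 6, 8, 6 and 8 in Fut2, 34.1 kb from Fgf21. By the deposited fold over local background, the D8 to D0 ratios of the lower sites were 1.06 in WT and 0.906 in HY at the Fgf7 promoter, 0.572 and 0.643 at the Fgfr1 distal site, 0.606 and 0.498 at the Mamstr site and 0.550 and 0.540 at the Fgfr2 site. Those of the higher sites were 1.28 and 1.24, 1.21 and 1.12, 1.35 and 1.18, and 1.29 and 1.30 in the order above.

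**Figure D5:**
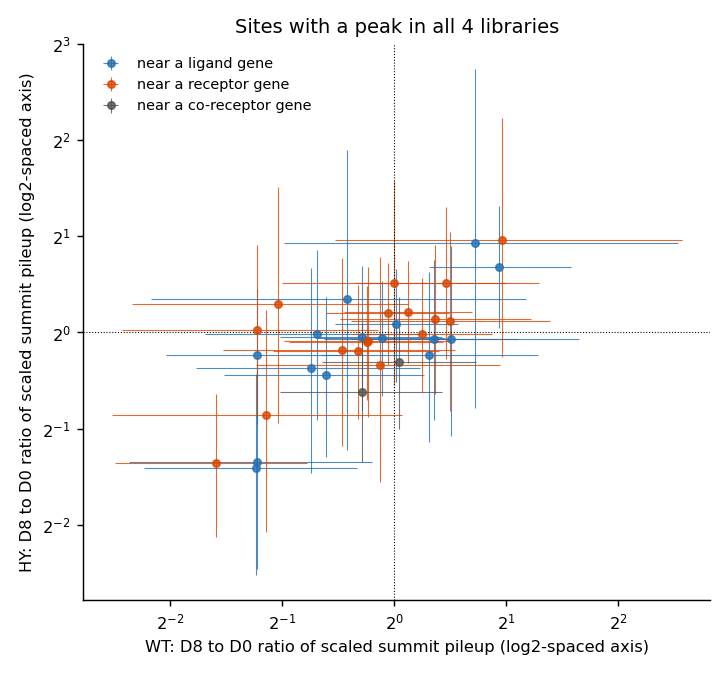
D8 to D0 ratio of scaled summit pileup in WT (x axis) and HY (y axis), both log-spaced, at the 34 member sites with a peak in all 4 libraries, with 95% exact binomial intervals for counting error. Most intervals cross 1 (dotted lines), and the Fgfr1 distal site (0.331 and 0.391), the Mamstr site (0.424 and 0.375) and the Fgf7 promoter (0.427 and 0.394) are low in both genotypes.

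WT and HY were compared site by site on each day. At the 9 D8-only sites the HY to WT scaled ratio ranged from 0.671 to 1.84, and all 9 intervals included 1, so no difference between genotypes was detectable there at this depth. Over all member sites with a peak in both genotypes, the interval left out 1 at 0 of 46 sites at D8 and at 2 of 73 at D0. Both of the latter were D0-only sites and they went in opposite directions. The HY to WT scaled ratio was 0.493 (interval 0.262 to 0.898) at the Fgf1 site inside Arhgap26 and 2.33 (1.08 to 5.43) at the Fgfr1 site 42.4 kb upstream. The median of this ratio over all 24369 all-library sites was 1.12 at D8 and 1.05 at D0. The share of all sites near genes whose interval left out 1 was not counted, so the 0 of 46 and 2 of 73 cannot be set beside it. A D8 peak was called in HY but not in WT at 18 member sites (13.3%, against 12.8% of sites near all genes) and in WT but not in HY at 8 (5.93%, against 5.08%). The HY pileups at the first group ranged from 6 to 16 with a median of 8.50, and 11 of the 18 had a D0 peak in both genotypes. The WT pileups at the second group ranged from 5 to 10 with a median of 7, and 3 of the 8, all at Fgfr1, had a D0 peak in both. At D0 a peak was called in HY only at 24 sites (17.8%, against 17.3%) and in WT only at 19 (14.1%, against 10.0%). The 2 D8 groups together counted 26 sites, and 13 sites were of this kind once peaks with a -log10 q under 5 had been dropped.

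The other genes of the pathway were examined as 42 genes in 5 groups. The number of promoters with a peak differed little between libraries, at 25, 24, 25 and 23 genes, and 22 genes had one in every library and 16 in none. The other ligands were mostly without a promoter peak (13 of 17). Fgf22 was the 1 gene of the 42 whose promoter was called on 1 day only in both genotypes, at a pileup of 14 in either D0 library. Of the other receptors and co-receptors, Fgfrl1, which encodes a receptor without a kinase domain, was open in all 4 libraries at 29 to 35. The promoters of Fgfr4 and of Kl, which encodes the FGF23 co-receptor alpha-Klotho, had no peak, and Kl had no D8-only site among its 6 sites. The heights at the 22 promoters called in every library were not all alike. Relative to the median all-library site, 3 of the 22 had a tallest promoter peak lower at D8 by at least 1.5 times in both genotypes, against 4.57% of all genes with a promoter peak in every library, and 1 had a higher one, against 3.36%. Etv4, which encodes an ETS transcription factor induced by FGF signalling, had pileups of 39 and 15 in WT and 43 and 15 in HY. Its scaled ratios were 0.477 (interval 0.244 to 0.886) and 0.500 (0.258 to 0.917). Dusp6, which encodes an ERK phosphatase, had 64 and 30 in WT and 76 and 29 in HY, for scaled ratios of 0.582 (0.364 to 0.911) and 0.546 (0.343 to 0.848). The third was Fgf15 at 14 and 6 in WT and 16 and 7 in HY, and the higher one was Hs6st1 at 25 and 33 and at 33 and 34, and the intervals of both genes included 1. Adaptor genes, which link the receptors to the RAS pathway, had a promoter peak in all 4 libraries at 7 of 8, and genes of heparan sulfate synthesis at 4 of 5. Feedback inhibitors and targets of FGF signalling had one in all 4 at 8 of 9. Of these 8, all except Etv4 and Dusp6 were neither lower nor higher at D8 by 1.5 times in both genotypes. At least 1 D8-only site was found near 15 of the 42 genes, against 27.9% of all protein-coding genes. The highest number near any of the 42 was 3, at Plcg1, which encodes phospholipase C gamma.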

How the data were processed

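ATAC-seq peak lists of 4 libraries (WT D0, WT D8, HY D0, HY D8, 1 per group) were used, in the 10-column narrowPeak layout. The submitters' processing notes name Bowtie2, SAMtools, Picard and deepTools with the mm9 build, and versions and any shift of read ends for Tn5, which could move a summit by a few bases, are not given in the sources used here. The authors' peak caller gave each summit a fold over local background, a ratio deposited without normalization between libraries. The authors deposited -log10 p and -log10 q in further columns. No read counts were used.

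Summit pileup and local background were solved from fold and -log10 p, and 100% of peaks had a whole-number pileup that met the deposited value within 0.002. The lowest background of a list (0.659, 0.531, 0.708 and 0.494) is proportional to depth and scaled the ratios. Intervals are Clopper-Pearson. The steps were tested on simulated data. Sites joined peaks sharing at least 1 bp, and the overlap of over 50% in the study's methods was an alternative. The reference was NCBIM37 with GENCODE annotation, no peak ended beyond its chromosome, and positions are 1-based.

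Named were all promoter sites, all D8-only sites, sites called in both libraries of 1 genotype only and, per gene, the 2 other tallest sites. Further sites, and Fgfrl1, Fgfr4, Kl, Plcg1, Etv4, Dusp6, Fgf15 and Hs6st1, were named after their values were seen. The members and lists were chosen with earlier results of these data known. Alternatives were another joining of peaks, a -log10 q of at least 5, lists of equal length, windows of 10 kb and 100 kb, the nearest TSS, a wider promoter window, other scalings and, added after seeing the data, leaving out the far Fgfr2 start. Python 3.11.15, numpy 2.4.6, pandas 2.3.3, scipy 1.17.1 and matplotlib 3.10.9 were used.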

Additional observations from a re-analysis of the deposited data

Results flagged for a closer look

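At 9 of the 34 sites open in every library the scaled D8 to D0 pileup ratio lay above 1 in one genotype and below 1 in the other. The difference between genotypes was not tested at any of the 9. The share of all-library sites of the series with opposite directions was not counted, so it is not known whether 9 of 34 is usual. Which sites have opposite directions depends on where the scaling puts a ratio of 1. Relative to the median all-library site of the series 8 sites had opposite directions, 5 of them among these 9, and by the deposited fold over local background 12 sites did. At 1 of the 9, in an intron of Ctbp2 34.2 kb from the far Fgfr2 start, the ratio was 0.428 in WT (interval 0.186 to 0.904) and 1.02 in HY (0.546 to 1.88), with pileups of 29, 10, 28 and 20. At the other 8 both intervals included 1. Near Fgf1 the ratio was 0.745 in WT and 1.27 in HY at a weak intronic site, and 1.28 in WT and 0.955 in HY at the site 1.17 kb before the most distal start. In the Fgf21 window it was 1.42 in WT and 0.955 in HY at the Bcat2 start, and 1.24 in WT and 0.850 in HY in Rasip1. In the Fgfr1 window it was 0.486 in WT and 1.23 in HY at an intronic site, and 0.963 in WT and 1.15 in HY at the Letm2 promoter. At the Letm1 promoter in the Fgfr3 window it was 1.19 in WT and 0.986 in HY, and at the Rpl9 promoter in the Klb window 1.03 in WT and 0.811 in HY.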

How the results depend on the processing

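Counts moved by 1.5 times or more under the following settings. With lists of equal length there were 81 member sites, 14 D8-only and 11 D0-only. With a -log10 q of at least 5, 13 sites had a D8 peak in 1 genotype. A window of 10 kb gave 60 sites, 6 D8-only, 8 D0-only, 15 open in all libraries and 15 with a D8 peak in 1 genotype. One of 100 kb gave 217 sites, 17 D8-only, 46 D0-only and 58 open in all libraries. Counting only sites whose nearest TSS is that of a member gave 82 sites, 6 D8-only, 14 D0-only and 17 open in all libraries. The summed D8 to D0 height ratio in WT was 0.984 after scaling to the median all-library site, which is outside the counting interval of the reported 0.882 (0.806 to 0.964) although it is not a move of 1.5 times. The wider and narrower windows hold more or fewer sites by construction, and the cause of the other shifts was not tested. In the remaining alternatives counts moved by less than 1.5 times and height ratios stayed within their counting intervals. Among them, requiring 50% overlap gave 11 D8-only and 34 D0-only sites, and leaving out the far Fgfr2 start, added after seeing the data, gave 123 sites, 9 D8-only and 22 D0-only. The number of members with a promoter peak was 5 to 8 in every library and setting. No paired analysis was possible because each group had 1 library and the labels carry no replicate numbers, and no replicate could be left out. A peak at the genome rate needed a pileup of 4 or 5, so weaker accessibility was not detectable.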
